A study of Mus musculus with 5 samples.

Results

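The IGF binding proteins, the proteases that cut them and the inhibitors of these proteases were described in lung fibroblasts after deletion of the IGF1 receptor gene Igf1r. The 10 genes were chosen by symbol from the 23478 genes of the count table, and all were present and had enough counts to be tested. Of these, 6 encode IGF binding proteins (Igfbp2, Igfbp3, Igfbp4, Igfbp5, Igfbp6 and Igfbp7), Pappa and Pappa2 encode the proteases, the pappalysins, and Stc1 and Stc2 encode the inhibitors, the stanniocalcins. RNA of GFP+ cells sorted from P6 mouse lungs, which the labels call fibroblasts, was sequenced in 5 libraries. The mice were of mixed background and both sexes. The 2 control libraries came from mice with the alleles Igf1r Flox/Wildtype, and the 3 mutant libraries, in which Igf1r was deleted, from mice with the alleles Igf1r Flox/Flox. Mice of both genotypes carried Gli1-CreERT2 and the Cre-dependent Rosa26-eGFP reporter, and each pup received 100 µg of tamoxifen on P0 and on P1. The controls could therefore lose 1 Igf1r allele. Cre was driven from Gli1, which is active in lung fibroblasts, and the sorted GFP+ cells are the cells with recombination and their progeny. The number of pups behind a library is not given in the sources used here, so the p-values measure only the spread between these libraries, which may be technical in part.

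IGF1 and IGF2 circulate and lie in tissue largely bound to IGF binding proteins, which hold them away from the receptor and prolong their life. Cleavage by a pappalysin lowers the affinity of a binding protein and sets the ligand free close to the cell. Stanniocalcins bind the pappalysins and block this step, so the level of active IGF at a fibroblast depends on all 3 groups as well as on the ligands and the receptor.

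The libraries held 35116766 to 37597857 counts each, and 15298 genes were tested. The smallest count of any of the 10 genes in any library was 327 (exact 95% Poisson interval 293 to 364, for counting error only), so the spread between libraries and not depth set the precision. The deleted gene checks the labels. Igf1r had 324 CPM (counts scaled to library size with TMM factors) in each of the controls and 140, 177 and 194 CPM in the mutant libraries. Its log2 fold change was −0.93 with a standard error of 0.14 (adjusted p = 0.354 with edgeR and 1.1e-05 with DESeq2's Wald test). RNA of the gene was thus lower in every mutant library and not absent. Fibroblast markers were abundant in every library, with Col3a1 at 6985 to 9797 CPM and Col1a2 at 5528 to 7371 CPM. The summed level of 8 such markers was 41150 and 41160 CPM in the controls and 28230 to 40220 CPM in the mutant libraries, and none of them passed an unadjusted p-value under 0.05 in the edgeR fit. Markers of other cells were present as well. The summed level of 8 epithelial markers was 814 to 842 CPM in control against 371 to 842 CPM in mutant libraries, that of 8 endothelial markers 498 to 505 CPM and 251 to 709 CPM, and that of 8 hematopoietic markers 354 to 542 CPM and 187 to 433 CPM. None of the markers of these lists or of those described later was at 0 in every library. The controls differed from each other more than the genotypes did for 6 of the 10 genes. For 8 of the 10 control replicate 1 lay farther from the mean of the mutant libraries than control replicate 2. Neither count was made over all tested genes, so nothing particular to the 10 genes is read from them.

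Sequence places the genes in their families. The following coding stretches, read from GENCODE M21 transcripts on mm10, are shown because they carry the shared cysteine cluster of the amino-terminal, IGF-binding domain. All lie in exon 1, at chr1:72824766-72824813 (plus strand), chr11:7213554-7213601 (minus strand), chr11:99041638-99041685 (plus strand) and chr1:72873954-72874001 (minus strand), and capitals mark the codons of the 4 cysteines.
Igfbp2: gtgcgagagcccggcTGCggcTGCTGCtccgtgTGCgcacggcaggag
Igfbp3: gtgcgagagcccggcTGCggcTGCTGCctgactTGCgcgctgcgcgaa
Igfbp4: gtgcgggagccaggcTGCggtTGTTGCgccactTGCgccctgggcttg
Igfbp5: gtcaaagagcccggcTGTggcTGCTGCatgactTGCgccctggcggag
The stretches of Igfbp3 and Igfbp5 were identical at 38 of 48 bases, the most of any pair, and those of Igfbp2 and Igfbp4 at 33 of 48. The search also required a glycine codon before the first cysteine codon, and this pattern was not found in the coding sequence of Igfbp6 or Igfbp7. The same spacing of cysteine codons without that glycine was not searched for. Of the 30-base words in the exons of Igfbp2 and Igfbp3, 0.221% and 0.129% also occur in another gene, and for Igfbp5, Igfbp6 and Stc2 none do. The shares were larger for Igfbp4 (6.46%), Stc1 (4.87%), Igfbp7 (4.73%) and Pappa2 (3.19%), so a small part of their reads may have been assigned to other genes or from them.

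The zinc-binding site of the catalytic domain is shown for the pappalysins, because the protease genes are compared with each other. It lies in exon 4 of both genes, at chr4:65180911-65180961 (plus strand) and chr1:158857327-158857377 (minus strand), and capitals mark the codons of the 3 zinc-binding histidines and the catalytic glutamate.
Pappa: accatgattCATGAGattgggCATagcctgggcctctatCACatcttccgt
Pappa2: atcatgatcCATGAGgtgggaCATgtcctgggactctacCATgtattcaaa
These stretches were identical at 36 of 51 bases.

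Levels can be set side by side between genes only per length of exon, and were therefore taken as CPM per kilobase of exon. Igfbp4 and Igfbp7 stood first. Igfbp4, the binding protein cut by the protease PAPP-A, had levels of 419 to 615, and Igfbp7, a low-affinity IGF binder of the matrix, had levels of 450 to 590, so their order was not settled. Below them came Igfbp5 (99.0 to 141), which binds matrix and cell surface, and Igfbp6 (53.2 to 128), which prefers IGF2, again with overlapping ranges. Igfbp3, the main carrier of IGF in serum, was the fifth gene in all 5 libraries at 27.9 to 84.2, a range that overlapped that of Igfbp6 and not that of the next gene. Igfbp2, a binding protein with an integrin-binding site, followed at 13.8 to 20.7. The stanniocalcin gene Stc1 (8.01 to 16.1) and the protease gene Pappa2 (5.20 to 13.9) overlapped each other, and both overlapped Igfbp2. Stc2 (1.59 to 2.97) and Pappa (1.27 to 4.18) were lowest and overlapped as well. Among the 15298 tested genes, ranked by CPM, Igfbp4 stood at percentile 99.8, Igfbp5 at 98.9 and Igfbp7 at 98.7, while Pappa stood at 57.7 and Stc2 at 43.2. The order of levels per length was the same with library totals in place of TMM and with the length of 1 principal transcript in place of all annotated exons.

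**Figure D1:**
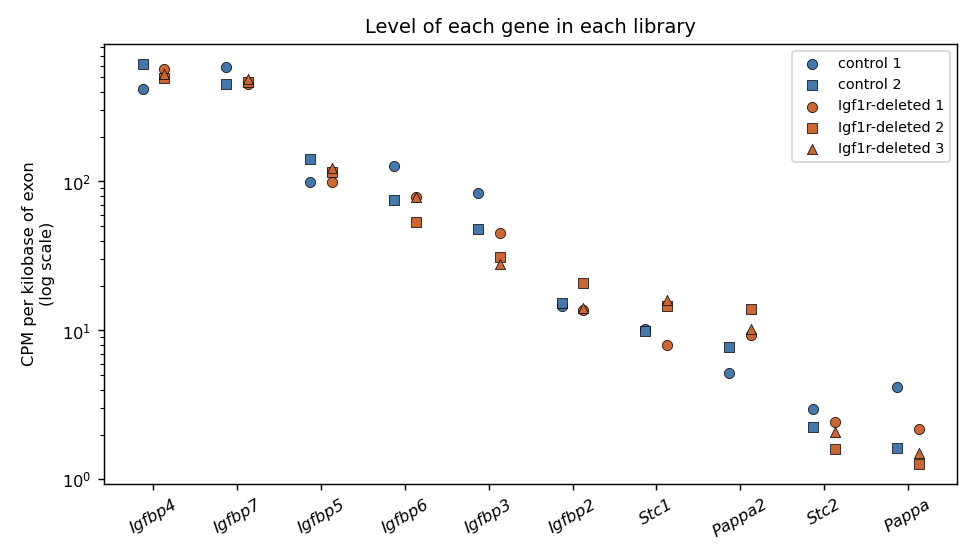
Level of each of the 10 genes (CPM per kilobase of exon, log axis) in each library, ordered by the mean over libraries. Blue points are the 2 controls and orange points the 3 mutant libraries. Igfbp4 and Igfbp7 lie near the top at 419 to 615 and Pappa and Stc2 at the bottom at 1.27 to 4.18.

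The binding protein transcripts were dominated by Igfbp4 and Igfbp7, while Igfbp5 took 7.48% to 10.5% of the summed level in the 5 libraries. Igfbp4, Igfbp5 and Igfbp7 together made up 83.0% and 89.6% of the summed level of the 6 genes in the controls and 89.1%, 91.1% and 90.4% in mutant replicates 1, 2 and 3. The sum itself was 1340 and 1350 in the controls and 1250, 1180 and 1260 in the mutant libraries, on the scale of CPM per kilobase of exon. Every mutant library lay below both controls in the sum on this scale, but not with library totals in place of TMM (1284 and 1319 in the controls against 1227, 1250 and 1293 in the mutant libraries). Without division by length, the sums also overlapped, with 3599 and 4373 CPM in control against 3889, 3626 and 3874 CPM in mutant libraries. Control replicate 1 differed from the other 4 libraries in its make-up. Igfbp4 took 31.4% of its sum and 41.7% to 45.7% in the others, while Igfbp3 took 6.30% and Igfbp6 9.59%, against 2.21% to 3.61% and 4.50% to 6.27%. The level of Igfbp5 was 1.19 and 2.92 times that of Igfbp3 in the controls and 2.19, 3.69 and 4.41 times in mutant libraries 1, 2 and 3, and control replicate 2 lay within the range of the mutant libraries. These are the substrates of PAPP-A2.

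**Figure D2:**
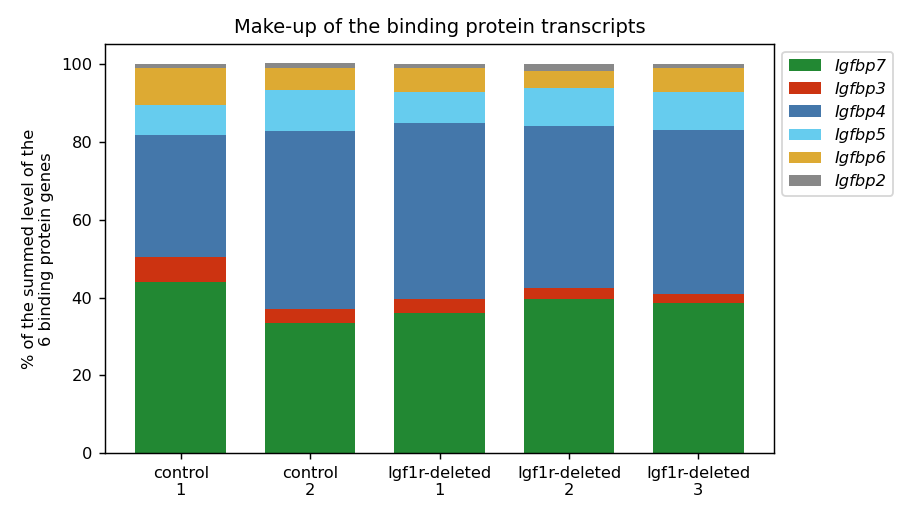
Share of each binding protein gene in the summed level of the 6 genes (% of CPM per kilobase of exon) in each library. Igfbp4 and Igfbp7 fill most of each bar, and control replicate 1 has the smallest Igfbp4 share (31.4%) and the largest Igfbp3 share (6.30%).

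The comparison of genotypes asks whether loss of the receptor is accompanied by a change in the proteins that control access of its ligands. In the quasi-likelihood test of edgeR, adjusted by Benjamini-Hochberg over all 15298 genes, 0 of the 10 genes had an adjusted p-value under 0.05 (background 0%), and the smallest adjusted p was 0.354. DESeq2's Wald test called 1 of the 10 (Igfbp3) at an adjusted p-value under 0.05, where 1.61% of all genes with an adjusted p were called. At an unadjusted p-value under 0.05 edgeR gave 2 of the 10, Igfbp3 lower and Pappa2 higher, where 12.4% of all tested genes passed (6.75% lower and 5.65% higher). These were also the 2 genes for which the genotypes did not overlap, where 31.0% of all tested genes did not (14.9% lower and 16.0% higher in mutant libraries). Both shares are close to the background, and nothing particular to the family is read from them. The criterion in the methods of the study (absolute log2 fold change of at least 0.5, unadjusted p under 0.05, here from edgeR, and a level above 1 CPM per kilobase in 1 control or 2 mutant libraries) was met by the same 2 genes and by 4.73% of all genes with an exon length. With the p-values of DESeq2, nearer to the tool of the study, it was met by 4 of the 10 (Igfbp6 and Pappa in addition) and by 5.27% of these genes. The median log2 fold change of the 10 genes was −0.13, beside 0.015 over all genes tested, with 6 lower and 4 higher in mutant libraries.

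**Figure D3:**
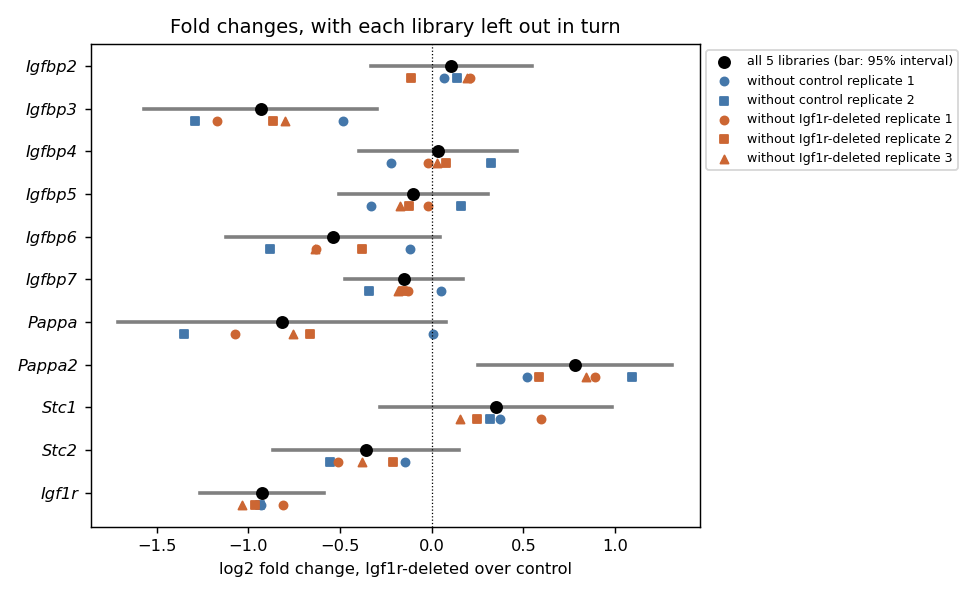
Log2 fold change of mutant over control libraries for the 10 genes and Igf1r (black point, with its 95% interval from the edgeR fit as a grey bar), and the value with each library left out (small blue and orange symbols). The intervals of Igfbp3 and Pappa2 lie on 1 side of 0, and leaving out control replicate 1 brings Igfbp3 to −0.48 and Pappa to 0.0088.

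Igfbp3 had the largest difference of the binding protein genes. The gene (mm10 chromosome 11, 7206086 to 7213923, minus strand) lies next to Igfbp1, the binding protein gene best known from liver. Its level was 264 and 151 CPM in control libraries and 141, 97.2 and 87.4 CPM in mutant libraries 1, 2 and 3 (207 ± 79.6 CPM, SD, n = 2, against 109 ± 28.7 CPM, SD, n = 3). All mutant libraries lay below both controls, but replicate 1 was only just below control replicate 2. The log2 fold change was −0.93 (standard error 0.27, 95% interval −1.57 to −0.30, Benjamini-Hochberg adjusted p = 0.354, edgeR). Without control replicate 1 it was −0.48, with an unadjusted p of 0.102 in the edgeR fit. Under the 8 other ways of processing, its adjusted p lay between 0.0322, with the replicate number as a block in edgeR, and 0.357, and it was 0.0477 with DESeq2.

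The other binding protein genes had overlapping levels in the genotypes. Igfbp6 (chromosome 15, 102144362 to 102149511, plus strand) had 143 and 84.2 CPM in control against 86.8, 59.2 and 88.1 CPM in mutant libraries. Its high value belonged to control replicate 1, as for Igfbp3, and without that library the log2 fold change went from −0.54 (adjusted p = 0.420, edgeR) to −0.12. Igfbp7 (chromosome 5, 77349240 to 77408041, minus strand) had 713 CPM in control replicate 1 and 544 to 590 CPM in the other 4 libraries. Its log2 fold change of −0.15 (95% interval −0.47 to 0.17) was 0.050 without that library, and 7.03% of its exon length overlaps Polr2b on the opposite strand.

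Igfbp4 and Igfbp5 showed the reverse arrangement, with control replicate 1 low. Igfbp4 (chromosome 11, 99041244 to 99054392, plus strand) had 1852 and 2717 CPM in control against 2497, 2174 and 2343 CPM in mutant libraries, all between the controls. Its log2 fold change was 0.033 with a 95% interval of −0.40 to 0.46, so a change within that interval in either direction is not excluded by these libraries. Igfbp5 (chromosome 1, 72857932 to 72874884, minus strand) had 600 and 846 CPM in control against 594, 689 and 739 CPM in mutant libraries (log2 fold change −0.10, 95% interval −0.51 to 0.30). Igfbp2, its neighbor on chromosome 1 (72824503 to 72852474, plus strand), had 27.1 and 28.5 CPM in control against 25.5, 38.3 and 26.2 CPM in mutant libraries, so only replicate 2 stood above the rest. Igfbp2 had a log2 fold change of 0.11 (95% interval −0.33 to 0.55), which was −0.11 without that replicate.

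The pappalysin genes had fold changes of opposite sign with all 5 libraries, and that of Pappa rested on 1 library. Pappa2 encodes PAPP-A2, which cuts IGFBP3 and IGFBP5, and is a gene of chromosome 1 (158711727 to 158980490, minus strand). It stood at 53.6 and 80.1 CPM in control libraries and 96.4, 144 and 105 CPM in mutant libraries 1, 2 and 3 (66.8 ± 18.7 CPM, SD, n = 2, against 115 ± 25.2 CPM, SD, n = 3). Each mutant library exceeded both controls. Of its exon length 3.01% overlaps 1600012P17Rik on the same strand. The log2 fold change was 0.78 (standard error 0.23, 95% interval 0.25 to 1.31, Benjamini-Hochberg adjusted p = 0.354, edgeR), and its adjusted p lay between 0.0155, with the replicate block in edgeR, and 0.357 under the 8 other ways of processing, and it was 0.0588 with DESeq2. Without control replicate 1 it was 0.52, with an unadjusted p of 0.0714 in the edgeR fit.

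Pappa encodes PAPP-A, which cuts chiefly IGFBP4 and also IGFBP5 and IGFBP2, and is a gene of chromosome 4 (65124174 to 65357509, plus strand). It had 46.1 and 18.0 CPM in control against 24.0, 14.0 and 16.6 CPM in mutant libraries. Control replicate 1 was alone at a high level, and control replicate 2 lay within the range of the mutant libraries. The log2 fold change of −0.82 (95% interval −1.71 to 0.077, adjusted p = 0.422, edgeR) was 0.0088 without control replicate 1, so the lower mean of Pappa rested on that library.

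Per length of exon Pappa2 was the higher of the pappalysin genes in every library. Its level was 1.24 and 4.76 times that of Pappa in the controls and 4.31, 11.0 and 6.74 times in mutant replicates 1, 2 and 3. The ratio overlapped between the genotypes, and its mean differed by 1.49 on the log2 scale (exact permutation test over libraries, two-sided, p = 0.3, where the 10 possible splits allow no p below 0.1). The summed level of both genes was 9.39 and 9.41 in the controls and 11.5, 15.2 and 11.7 in the mutant libraries, on the scale of CPM per kilobase of exon. All mutant libraries thus lay above both controls in the sum, of which Pappa2 was the larger part in every library. Of all tested genes, taken singly, 16.0% were likewise higher in mutant libraries without overlap.

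The stanniocalcin genes did not separate the genotypes. Stc1 (chromosome 14, 69029238 to 69041804, plus strand) had 43.2 and 41.8 CPM in control libraries and 33.6, 61.2 and 67.7 CPM in mutant libraries 1, 2 and 3. Replicate 1 lay below the controls and replicates 2 and 3 above, and the log2 fold change was 0.35 (95% interval −0.28 to 0.98). Without mutant replicate 1, the library against this direction, it was 0.59, with an unadjusted p of 0.000789 in the edgeR fit. Without mutant replicate 2 it was 0.25 and without mutant replicate 3 0.16, with an unadjusted p of 0.438 and 0.575 in edgeR. Of the exon length of Stc1, 5.46% overlaps Gm41192 on the opposite strand. Stc2 (chromosome 11, 31357307 to 31370074, minus strand) had 15.4 and 11.6 CPM in control against 12.6, 8.22 and 10.8 CPM in mutant libraries (log2 fold change −0.36, 95% interval −0.86 to 0.15). The level of Stc1 per length of exon was 3.47 and 4.44 times that of Stc2 in the controls and 3.30, 9.18 and 7.73 times in the mutant libraries (exact permutation test over libraries, two-sided, p = 0.4).

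**Figure D4:**
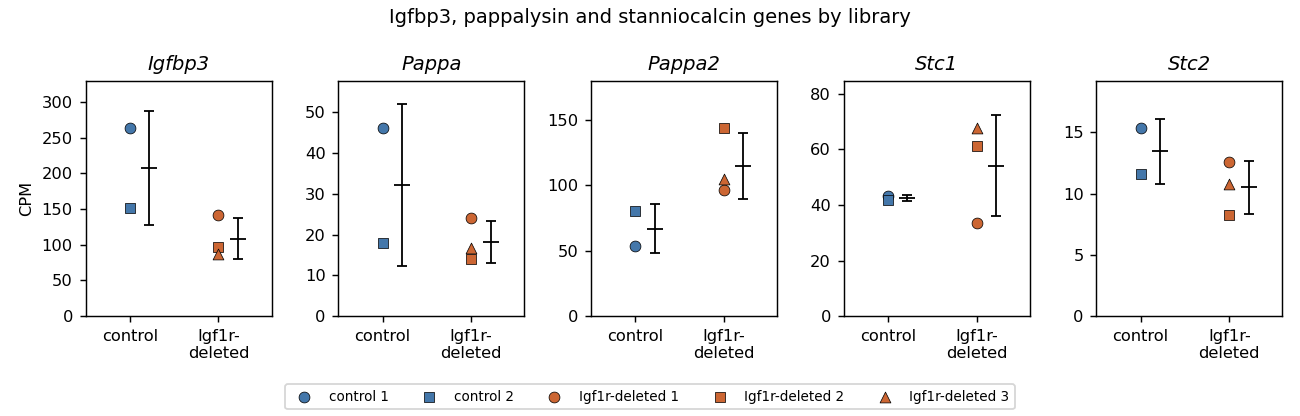
CPM of Igfbp3, the pappalysin genes Pappa and Pappa2 and the stanniocalcin genes Stc1 and Stc2 in each library, with the mean and SD of each genotype as black bars (n = 2 controls, n = 3 mutant). Igfbp3 and Pappa2 do not overlap between the genotypes. For Pappa control replicate 1 is alone at 46.1 CPM, and for Stc1 mutant replicate 1 is lowest at 33.6 CPM.

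The remaining genes of the IGF system give the setting. The ligand gene Igf1 had 457 and 431 CPM in control against 554, 509 and 517 CPM in mutant libraries (log2 fold change 0.25). For Igf2 the levels were 377 and 408 CPM in controls and 350, 143 and 145 CPM in mutants, a log2 fold change of −0.88, though 64.5% of its exon length overlaps other annotated genes. The receptor gene Igf2r, whose product clears IGF2, had 622 and 553 CPM in controls and 529, 432 and 402 CPM in mutants, a log2 fold change of −0.37. Insr, the insulin receptor gene, had 144 and 118 CPM in controls and 96.6, 100 and 104 CPM in mutants, a log2 fold change of −0.38. For these 4 genes and Igf1r the genotypes did not overlap, as for 31.0% of all tested genes. Their unadjusted p was under 0.05 in the edgeR fit, as for 12.4% of all tested genes. In that fit none had an adjusted p-value under 0.05. With DESeq2's Wald test the unadjusted p of Igf2 was 0.139, and those of the others stayed under 0.05. Insrr had at most 12 counts in a library.

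Of 40 further genes of the IGF system in the table, the ligands and receptors included, 32 had enough counts to be tested. In the edgeR fit 7 were lower and 3 higher at an unadjusted p-value under 0.05, with the deleted gene Igf1r among the lower. This was 31.2%, beside 12.4% of all tested genes. Without control replicate 1 the number was 3 (Igf1r, Wisp1 and Thbs1). The share of all tested genes passing was not counted in that fit. The list was written with earlier results of these data known, and for several of its genes the difference had already been seen. Igfbp1, expressed mainly in liver and decidua, had a single count in 1 library. Igfals, which completes the serum complex of IGF and IGFBP3, and Igfbpl1 had at most 12 counts. Kazald1, a secreted relative of the binding proteins, had 18.4 and 19.4 CPM in control against 23.5, 24.3 and 25.1 CPM in mutant libraries (log2 fold change 0.36).

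Among other enzymes able to cut binding proteins, 10 of 13 were tested and 1 passed at the unadjusted threshold. This was the lysosomal protease gene Ctsd, with 551 and 434 CPM in control against 418, 354 and 344 CPM in mutant libraries (log2 fold change −0.41, and −0.23 without control replicate 1). The relatives of the CCN family gave 1 of 5, Wisp1, with 33.2 and 85.8 CPM in control against 118, 142 and 134 CPM in mutant libraries. The size of its difference depended on the controls, with log2 fold changes of 1.14 over all libraries, 0.61 when control replicate 1 was left out and 1.97 when control replicate 2 was. Of 10 surface and matrix partners 2 passed, both lower. Lrp1, a receptor that takes up IGFBP3, had a log2 fold change of −0.60, and Thbs1, which binds IGFBP5, of −0.91.

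Marker genes of cell types were counted in the same libraries. Of 68 tested markers in 9 lists none had an adjusted p-value under 0.05 in edgeR, and 12 (17.6%) had an unadjusted one, beside 12.4% of all tested genes. Without control replicate 1 the number was 3 (G0s2, Kcnj8 and Cd79a), without control replicate 2 it was 21, and without mutant replicate 1 it was 23. In the edgeR fit 3 of 8 myofibroblast markers were higher and 1 lower at an unadjusted p-value under 0.05 (Acta2, Tagln and Actg2 higher, Hhip lower), with an overlapping summed level of 3095 and 3630 CPM in control against 3620 to 4286 CPM in mutant libraries. Of 7 lipofibroblast markers 3 were lower (Tcf21, G0s2 and Fabp4), with a summed level of 2031 to 2604 CPM in control against 1572 to 1820 CPM in mutant libraries. Of 7 adventitial fibroblast markers 1 was lower (Clec3b), with sums of 2992 and 3327 CPM in the controls and 2414 to 3214 CPM in the mutant libraries. Of 8 pericyte markers 2 were lower (Rgs5 and Abcc9), with sums of 565 and 611 CPM and of 536 to 607 CPM. The sum of 6 mesothelial markers was 444 and 450 CPM in the controls and 341 to 454 CPM in the mutant libraries. All 8 hematopoietic markers and all 8 epithelial markers had a log2 fold change below 0. Of the hematopoietic ones, Cd68 and Cd79a passed at the same threshold. No marker of the epithelial, endothelial or mesothelial lists passed. Their most abundant genes were Sftpc (232.9 to 551.7 CPM) and Sftpb (58.8 to 135 CPM), Cdh5 (58.4 to 206 CPM) and Cldn5 (52.6 to 177 CPM), and Upk1b (127 to 157 CPM) and Msln (104 to 151 CPM). The part of these cells in the levels of Igfbp3 and Pappa2 was not tested. In sorted pools of this kind fewer cells of a type and less RNA per cell cannot be told apart. With a library left out, the share of all tested genes passing was not counted. Those counts are therefore not read as results about the markers.

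Promoter windows of 250 bases before the RefSeq start site (GRCm38.p6) were matched for 8 of the 10 genes. Igfbp2 had 2 windows. Its second (chr1:72825137-72825386) and the window of Pappa2 lie inside the GENCODE M21 genes. The window of Igfbp6 ends at 102144185, before the GENCODE M21 gene begins at 102144362. All windows were searched on both strands for a TATA box (TATAAA), a GC box (GGGCGG), a FOXO site (GTAAACA) and the insulin response sequence (CAAAACAA), since FOXO factors act downstream of IGF1R. These were found in 12.4%, 32.7%, 3.17% and 2.21% of 32851 promoter windows of the same length. The letters of the TATA box were found before Igfbp4, and before Igfbp6 on the opposite strand, 148 bases before the start site. GC boxes were found before Igfbp7 and in the first window of Igfbp2 but not in its second, and no match of different motifs overlapped. The FOXO site and the insulin response sequence were found in none of the windows of the 8 genes, and the latter was found once before Igfbp1. The windows of Igfbp3, which had the largest difference among the binding protein genes, and of Igfbp4, which had the smallest, are shown in the direction of transcription with matches in capitals, at chr11:7213924-7214173 (minus strand) and chr11:99040994-99041243 (plus strand).
Igfbp3: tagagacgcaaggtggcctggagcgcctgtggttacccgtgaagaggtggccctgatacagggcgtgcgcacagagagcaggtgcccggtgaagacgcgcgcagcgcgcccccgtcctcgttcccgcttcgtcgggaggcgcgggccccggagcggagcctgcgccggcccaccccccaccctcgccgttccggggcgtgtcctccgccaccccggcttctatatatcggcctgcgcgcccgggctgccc
Igfbp4: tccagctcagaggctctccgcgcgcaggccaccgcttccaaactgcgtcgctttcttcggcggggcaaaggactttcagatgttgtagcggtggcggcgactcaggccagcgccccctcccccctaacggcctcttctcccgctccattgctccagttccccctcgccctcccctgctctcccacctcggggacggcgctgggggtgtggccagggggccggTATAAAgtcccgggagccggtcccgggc
The TATA box of Igfbp4 begins 28 bases before the start site, and the window of Igfbp3 holds no exact match to these 4 motifs. Near its end the Igfbp3 window holds the letters tatatat, and variants of the TATA box were not searched for.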

How the data were processed

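RNA was isolated from FACS-sorted GFP+ lung cells, and libraries were prepared with a NEBNext Ultra kit and read as 150-bp pairs. After trimming by Trim Galore and alignment by Bowtie2 to mm10, the authors counted reads with GenomicAlignments and deposited these raw, not normalized counts for each gene symbol and library. Versions, annotation and strand setting are not given in the sources used here. Bowtie2 does not split reads across introns, so junction reads may be missing from the counts.

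The quasi-likelihood F test of edgeR (version 4.0.16, under R 4.3.3, with limma 3.58.1) was applied to all 5 libraries, with genotype alone in the model, TMM factors, filterByExpr and p-values adjusted by Benjamini-Hochberg over 15298 genes. Unadjusted p-values in the text come from the same fit. Levels between genes used the length of all GENCODE M21 exons, which was found for 94.6% of the tested genes. The alternatives were DESeq2 1.42.0, other scalings and filters, limma voom, a replicate block and each library left out. The scripts were first tested on simulated data. The named genes are the 10 genes, Igf1r, the ligands and receptors, and the genes of the other lists at an unadjusted p under 0.05 or, where a list had none, its most abundant genes. Other genes were named after their values were seen. The genes and lists were chosen with earlier results of these data known. Protein sequences were not used here.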

Additional observations from a re-analysis of the deposited data

How the results depend on the processing

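Each of the 10 genes and Igf1r had the same direction under all 8 alternatives of the processing. DESeq2's Wald test gave 1 gene at an adjusted p-value under 0.05 and 4 at an unadjusted one, beside 0 and 2 with edgeR. Of all genes, DESeq2 gave 13.2% and edgeR 12.4% at an unadjusted p-value under 0.05. The looser filter gave 4 of the 10 genes at an unadjusted one (Igfbp6 and Pappa in addition), and its share of all genes was not counted. The criterion of the study was met by 2 genes with edgeR and 4 with DESeq2, a comparison chosen after seeing the data, as were the counts of markers with a library left out and the other scales of the sums. With each library left out the number at an unadjusted p-value under 0.05 ran from 0 (without control replicate 1) to 5 (without control replicate 2), and that of the 32 other IGF genes from 3 (without control replicate 1) to 17 (without mutant replicate 1), beside 10 with all libraries. It was also 6 without mutant replicate 2 and 5 without replicate 3 of that genotype. The log2 fold change changed sign for Igfbp2 (−0.11 to 0.21), Igfbp4 (−0.22 to 0.33), Igfbp5 (−0.33 to 0.16), Igfbp7 (−0.34 to 0.050) and Pappa (−1.35 to 0.0088), and kept it for Igfbp3 (−1.29 to −0.48), Igfbp6 (−0.88 to −0.12), Pappa2 (0.52 to 1.09), Stc1 (0.16 to 0.59), Stc2 (−0.56 to −0.15) and Igf1r (−1.03 to −0.81). Fewer libraries enter these fits, and the cause of each change was not tested. The share of all tested genes passing was not counted in them. The counts of passing genes are therefore not read as results about the 10 genes or the other IGF genes.

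The replicate numbers of the labels are shared by the genotypes only for replicates 1 and 2, and nothing in the sources used here says that they mark a litter or a day. With the replicate number as a block, mutant replicate 3 had no weight in the comparison. In that edgeR fit 2 genes (Igfbp3 and Pappa2) had an adjusted p-value under 0.05 and 5 an unadjusted one. How many of all tested genes passed there was not counted, so nothing particular to these genes is read from either number. Deviations from the group means correlated at 0.208 between the replicates numbered 1 and at 0.121 between those numbered 2, across genes. Between control replicate 2 and mutant replicate 3, which share no number, the correlation was 0.119. The deviations of the 2 controls are equal and opposite, so these values cannot tell whether a shared number marks a pair.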
